A study of Homo sapiens with 24 samples.

Results

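A549 cells, a human lung adenocarcinoma line, were transfected with a plasmid for SF3B2 and compared with A549 cells given a scramble plasmid. The comparison took 3 libraries labelled SF3B2 and 3 labelled scramble, chosen by cell line and plasmid from the sample titles, which is 6 of the 24 libraries of the series. It was made with all 6 libraries and again without scramble replicate 3, whose SF3B2 counts were raised. The series measured RNA by sequencing in A549 cells and in HEK293T cells, a human embryonic kidney line, each transfected with 1 of 4 plasmids (SF3B2, snaR-A, scramble or eGFP) and collected 48 h later. All groups had 3 biological replicates. SF3B2 was expressed as a tagged protein from a pcDNA3.1 backbone, as eGFP was, while the scramble and snaR-A RNAs were transcribed from U6-promoter plasmids. SF3B2 itself and the plasmid that carried it can therefore not be told apart in this contrast. All A549 groups shared the lipid transfection reagent.

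SF3B2 is a subunit of SF3b, the part of the U2 small nuclear ribonucleoprotein that helps to hold the branch point of an intron during the first steps of splicing. Cells that detect foreign nucleic acid in the cytoplasm, through sensors such as RIGI, IFIH1 and cGAS, make interferons beta and lambda. These ligands act through JAK kinases and STAT proteins to switch on antiviral effector genes, including the IFIT, OAS, MX and IFITM families. Heat shock genes encode chaperones that rise when proteins misfold.

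The 6 libraries held 214482353 to 260878268 estimated counts, so that 3 counts, the most that a count of 0 allows, stood for 0.0115 to 0.0140 CPM. Levels are CPM, counts scaled to a common library total, after TMM scaling unless named otherwise, and that floor covers counting error only, since PCR copies are not independent molecules. The 12 genes typical of A549 summed to 18093 to 19914 CPM and 12 genes typical of HEK293T to 150.4 to 186 CPM. Scramble replicate 3 stood apart from the other scramble libraries, and across genes its highest Spearman correlation with any of the other 5 libraries, 0.9933, was with SF3B2 replicate 2. The scramble libraries also lay on both sides of a split that ran through the series. PSMB3, a proteasome subunit gene, had 0 counts in 5 of the 24 libraries, which were scramble replicates 1 and 2 and eGFP replicate 3 in A549 and SF3B2 replicates 1 and 2 in HEK293T. In the other A549 libraries it lay between 32.3 and 58.5 CPM of the unscaled library total. The same 3 A549 libraries had SRSF4 at 83.2 to 101.5 against 64.0 to 71.5 in the other 9. They had HNRNPA2B1 at 1957 to 2235 against 1538 to 1837. Without scramble replicate 3 this split and the plasmid coincide and cannot be told apart within the 5 libraries. What the split stems from was not tested. Where a term for the split is added to the 6-library fit below, it takes up scramble replicates 1 and 2. SF3B2 is then compared with scramble replicate 3 alone, the library with raised SF3B2 counts. In the fit over all A549 libraries but scramble replicate 3, eGFP replicate 3 against the other eGFP libraries alone sets the split. Fits over all A549 libraries also held snaR-A replicate 3, whose labels disagree on the cell line.

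Within the 6 libraries the split also followed base composition, which was not examined in the other libraries without PSMB3 counts. Over 12002 genes the Spearman correlation of a library's deviation with transcript GC content was 0.29, 0.44 and 0.37 in the SF3B2 libraries, 0.43 in scramble replicate 3, and -0.46 and -0.51 in scramble replicates 1 and 2. Scramble replicate 3 thus lay with the SF3B2 libraries and away from its own group. Without it, genes in the highest quintile of GC content were higher with SF3B2 in 41.8% of cases and lower in 3.37%, and genes in the lowest quintile were higher in 3.87% and lower in 34.4%. With all 6 libraries 0.25% to 0.375% of the genes in each quintile were higher.

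**Figure D1:**
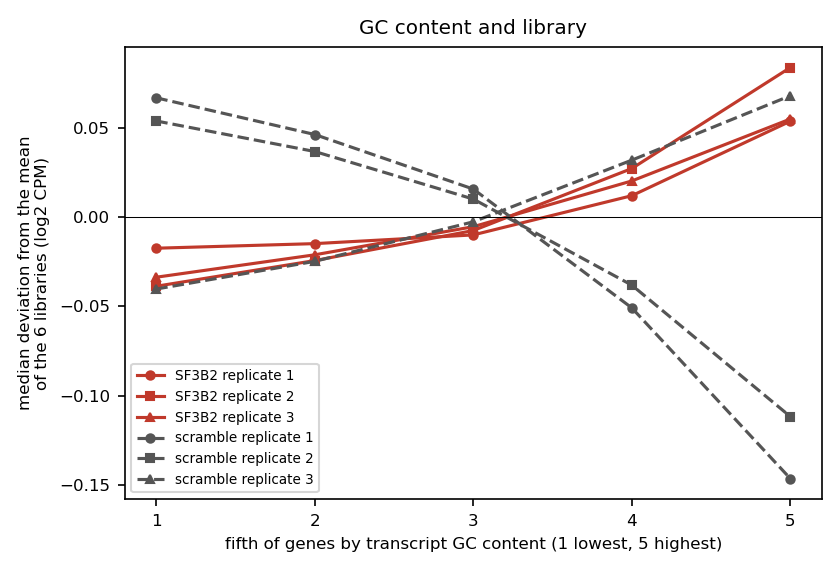
Median deviation from the mean of the 6 A549 libraries (log2 CPM) for genes in quintiles (5 equal bins, from low to high) of transcript GC content, 1 line per library. Scramble replicate 3 rises with GC content as the 3 SF3B2 libraries do, while scramble replicates 1 and 2 fall.

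SF3B2 RNA itself was far higher after the SF3B2 plasmid. Its level was 41715, 39727 and 39264 CPM in the SF3B2 libraries and 317, 288 and 7470.5 CPM in the scramble libraries, and 257, 259 and 309 CPM in the eGFP libraries. The groups did not overlap, but scramble replicate 3 was 24.7 times the mean of the other scramble libraries and reached 18.6% of the SF3B2 mean. SF3B2 (chromosome 11, 66050729 to 66069308, plus strand, GENCODE 44) took 3.86% to 4.13% of all counts in the SF3B2 libraries, 0.768% in scramble replicate 3 and 0.028% to 0.030% in scramble replicates 1 and 2. Reads from the plasmid and from the cell's own gene were counted together. The mean was 133 times that of scramble replicates 1 and 2 and 14.9 times that of all 3. With 6 libraries the log2 fold change was 3.90 ± 1.28 (± SE, as for all fold changes here) with an adjusted p of 0.374. Without scramble replicate 3 it was 7.04 ± 0.09 with an adjusted p of 1.30e-06. That library was left out for its SF3B2 counts, so for SF3B2 the second fit follows from this choice and is no separate test. An exact two-sided permutation test of the 3 against 3 libraries gave p = 0.1, the smallest that it can give. What raised SF3B2 in that library was not tested, and the name scramble replicate 3 stands here for the library that carries that label.

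With 6 libraries few genes passed. Of 21461 genes tested, 18 (0.0839%) had an adjusted p under 0.05 and a log2 fold change beyond 1, of which 16 were higher and 2 lower with SF3B2. At an adjusted p under 0.05 alone, which is what called means in the rest of the text, 46 (0.214%) were higher and 4 (0.0186%) lower, and 2801 genes had an unadjusted p under 0.05. Of the 46 higher genes 25 belonged to 5 lists of interferon genes. The SF3B2 libraries all lay above the scramble libraries in 2106 genes (9.81%) and all below in 1904 (8.87%). The count went up without scramble replicate 3, to 315 of 21989 genes (1.43%) past both limits. At an adjusted p under 0.05 alone 2398 (10.9%) were then higher and 2427 (11%) lower. These shares, and 0.214% and 0.0186% with 6 libraries, are the background for the list counts below. The typical called gene moved little, by 0.28 on the log2 scale (median of absolute values). Scaling by library size alone turned that split to 2999 higher and 1196 lower, and leaving SF3B2 out of the totals as well to 4659 higher and 788 lower, with the median of all genes at 0.06 and 0.12 in turn. All 50 genes called with 6 libraries were called in the same direction without scramble replicate 3. These 6-library counts rested on single libraries: no gene passed both limits or the adjusted p alone without scramble replicate 2, SF3B2 replicate 1 or SF3B2 replicate 2, where 1364, 1543 and 1428 genes had an unadjusted p under 0.05. Without SF3B2 replicate 3 there were 8 past both limits and 13 by adjusted p alone, and without scramble replicate 1 there were 16 and 32.

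In the 5 libraries the position of scramble replicate 3, which that fit did not use, divided the called genes. Of the 4825 genes called, scramble replicate 3 lay nearer to the SF3B2 mean than to the mean of scramble replicates 1 and 2 in 4328 (89.7%), against 69.6% of all genes tested. Among interferon-induced antiviral effectors it did so in 2 of 52. Among the mitochondrially encoded mRNAs it did so in 13 of 13.

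**Figure D2:**
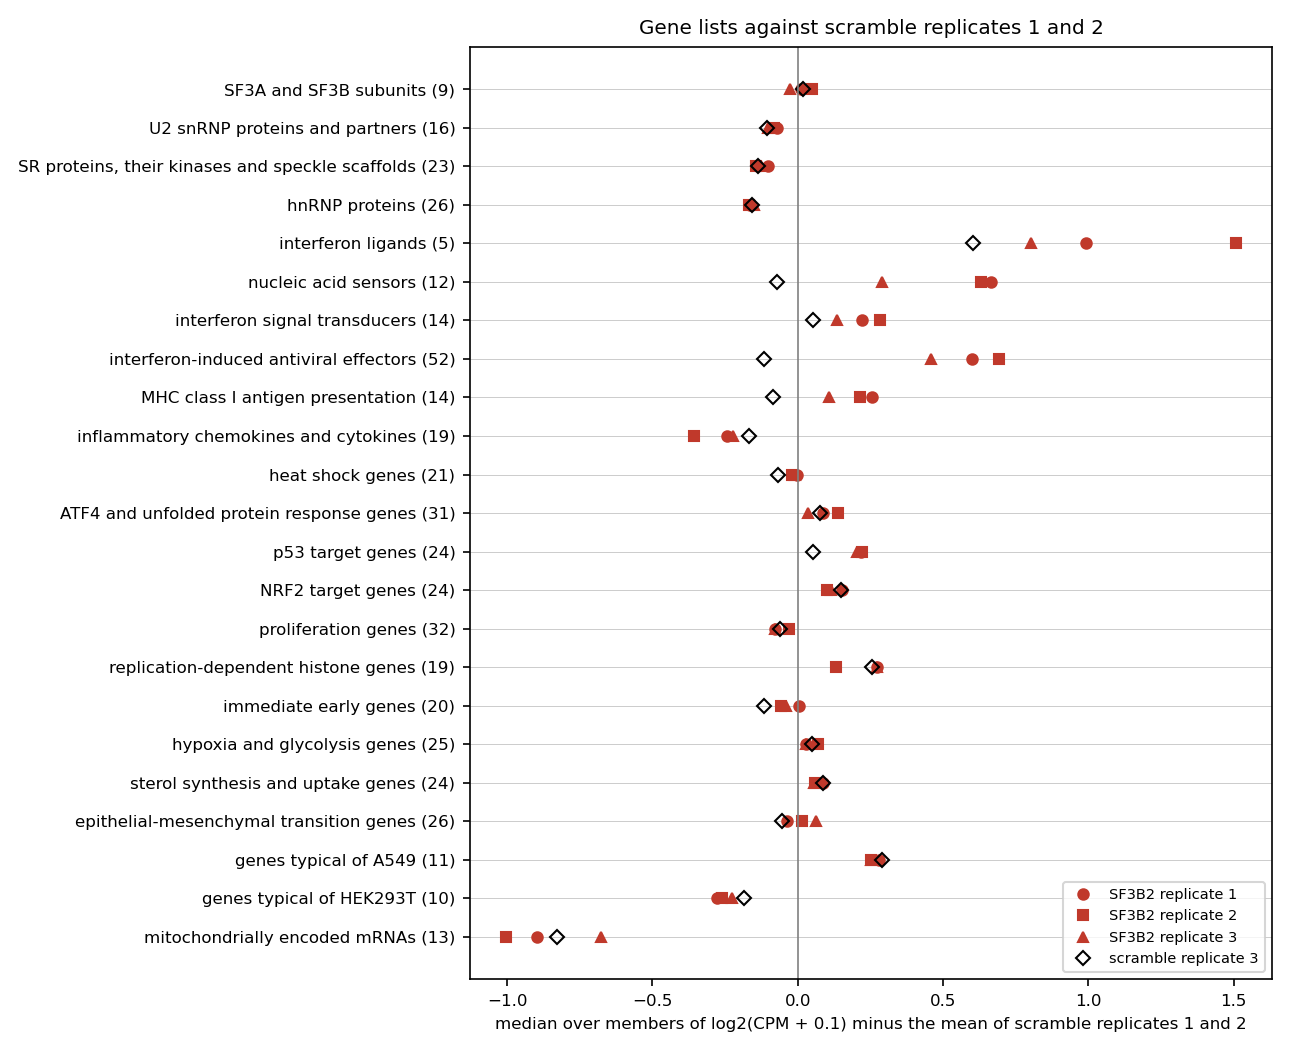
Median over the members of each list (number tested in brackets) of log2(CPM + 0.1) in a library minus the mean of scramble replicates 1 and 2. Scramble replicate 3 sits at -0.12 for the antiviral effectors, whose SF3B2 libraries sit at 0.46 to 0.69, and at -0.83 for the mitochondrial mRNAs, among their SF3B2 libraries at -1.0 to -0.68.

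The antiviral effectors of interferon were mostly higher with SF3B2 than in every scramble library. All 52 listed effectors were tested. With 6 libraries 19 rose (36.5%, against 0.214% of all genes tested). Without scramble replicate 3 it was 43 (82.7%, against 10.9%). None was called lower in either fit, and the log2 fold change was positive in 50 of the 52 with 6 libraries and in 49 without scramble replicate 3. The median log2 fold change was 0.64 with 6 libraries and 0.58 without scramble replicate 3, beside -0.00 over all genes tested in the latter. In 48 of the 52 all 3 SF3B2 libraries lay above all 3 scramble libraries, as in 9.81% of all genes tested. The 19 calls fell to 0 without scramble replicate 2, SF3B2 replicate 1 or SF3B2 replicate 2, and to 5 without SF3B2 replicate 3. The split as a term in the 6-library fit leaves scramble replicate 3 as the only control. There 51 of the 52 had a positive log2 fold change and the median was 0.76. The 43 calls also fell to 0 with the split as a term over all A549 libraries but scramble replicate 3. There 10 of the 52 had an unadjusted p under 0.05 and the median was 0.36. That split rests on eGFP replicate 3, whose effectors summed to 6027 CPM, below the other eGFP libraries at 7214 and 7360 CPM. DESeq2 called 46 and edgeR's exact test 43 with 6 libraries. In bulk RNA, a change in the number of responding cells and a change in RNA per cell cannot be told apart.

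Members of the IFIT cluster and MX1 rose with 6 libraries by a log2 fold change above 1. IFIT1 (chromosome 10, 89392546 to 89406487, plus strand), which binds foreign RNA ends, was at 105, 81.4 and 80.3 CPM with scramble and 208, 225 and 168 CPM with SF3B2. IFIT2 of the same cluster was at 49.8, 41.1 and 39.9 against 105, 111 and 84.4 CPM. The lowest SF3B2 library lay above the highest scramble library for both, and scramble replicate 3 was the lowest of its group. The log2 fold change was 1.17 ± 0.14 (adjusted p = 0.043) for IFIT1 and 1.20 ± 0.12 (adjusted p = 0.0316) for IFIT2. MX1, a GTPase that traps viral nucleocapsids, was at 60.2, 46.1 and 44.7 CPM with scramble and 115, 115 and 95.4 CPM with SF3B2. Its log2 fold change was 1.11 ± 0.13 (adjusted p = 0.043), again without overlap. IFI6, an interferon-induced membrane protein, also did not overlap. It was at 17.6, 16.3 and 16.6 CPM with scramble and 41.1, 42.7 and 32.5 CPM with SF3B2, a log2 fold change of 1.20 ± 0.10 (adjusted p = 0.0195).

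CMPK2, a mitochondrial nucleotide kinase induced by interferon, was at 3.32, 2.67 and 2.79 CPM with scramble and 8.18, 8.68 and 6.75 CPM with SF3B2. The rise on the log2 scale was 1.43 ± 0.13 (adjusted p = 0.0195). OAS2, an oligoadenylate synthetase that senses double-stranded RNA, was at 9.68, 7.77 and 8.38 against 23.7, 23.5 and 18.6 CPM. The SF3B2 libraries were again all above the scramble libraries, with a log2 fold change of 1.35 ± 0.12 (adjusted p = 0.0195). OASL, a relative without synthetase activity, was at 5.72, 6.11 and 7.70 CPM against 15.3, 18.6 and 12.9 CPM. BATF2, a transcription factor induced by interferon that stood outside the lists, was at 2.45, 2.16 and 2.59 CPM against 6.12, 5.97 and 4.51 CPM. IFITM1, which blocks virus entry, was low, at 0.833, 0.735 and 0.941 CPM with scramble and 3.48, 2.66 and 2.62 CPM with SF3B2. It had the largest log2 fold change of the effectors called with 6 libraries, 1.80 ± 0.16 (adjusted p = 0.0195), but 44.5% of the 31-base words of its transcripts occur in other genes, 22.1% in IFITM3, so its counts may be split. SF3B2 replicate 3 was the lowest SF3B2 library in each of these 5 genes.

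Other effectors were called only without scramble replicate 3, although that library did not sit with the SF3B2 libraries. ISG15, a ubiquitin-like modifier, was at 3.45, 4.04 and 6.33 CPM with scramble and 14.1, 15.0 and 10.3 CPM with SF3B2. Its log2 fold change was 1.51 ± 0.24 (adjusted p = 0.104) with 6 libraries and 1.79 ± 0.17 (adjusted p = 0.00391) without scramble replicate 3. IFI27, an interferon-induced mitochondrial protein, was at 0.674, 0.389 and 0.785 against 3.47, 1.95 and 2.54 CPM. BST2, the tether that holds budding virions to the cell surface, was at 0.281, 0.307 and 0.369 against 0.861, 0.978 and 0.603 CPM. For IFI27 and BST2 the groups did not overlap, and the 6-library adjusted p values were 0.0808 and 0.104, beside 0.00717 and 0.00979 without scramble replicate 3.

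**Figure D3:**
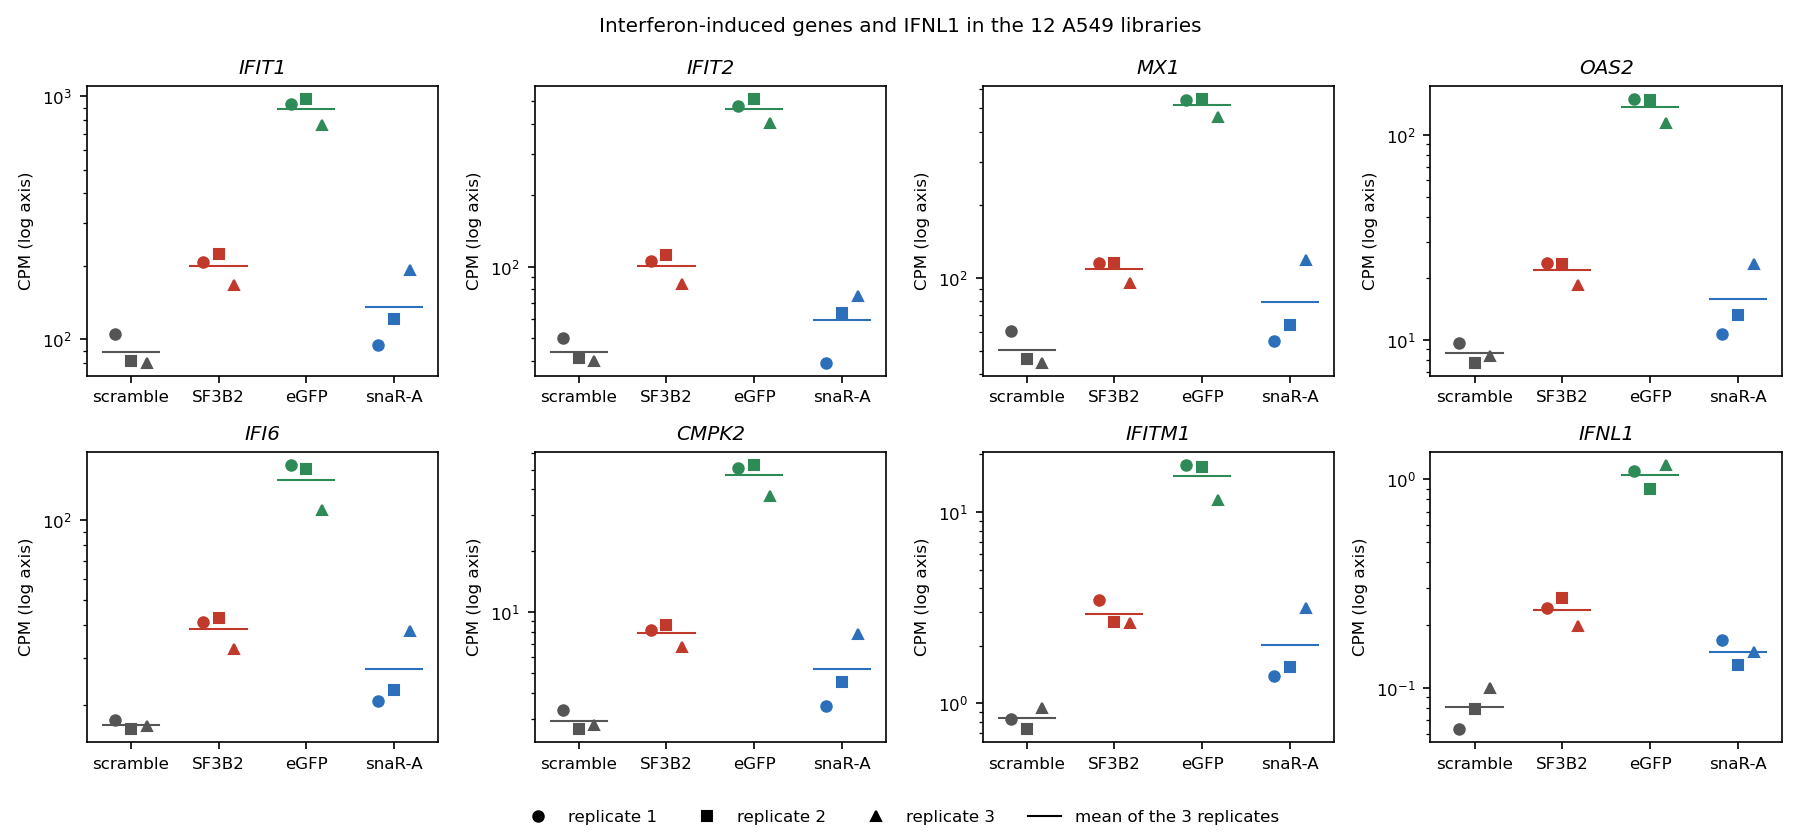
CPM (log axis) of 7 interferon-induced genes and the ligand IFNL1 in the 12 A549 libraries by plasmid, with points for replicates and a line at the mean of 3. In each panel the SF3B2 libraries lie above the scramble libraries and below the eGFP libraries, and for OAS2 and IFITM1 snaR-A replicate 3 lies within the SF3B2 range.

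Of the 14 listed nucleic acid sensors 12 were tested. With 6 libraries 3 rose (OAS1, OAS2 and OAS3), and without scramble replicate 3 there were 6, with IFIH1, DHX58 and IFI16 added and a median log2 fold change of 0.60 and 0.51 in turn. OAS1 was at 116, 115 and 118 CPM with scramble and 199, 190.4 and 174 CPM with SF3B2, a log2 fold change of 0.69 ± 0.05 (adjusted p = 0.0161). IFIH1, the sensor of long double-stranded RNA, was at 16.4, 12.2 and 10.9 against 24.0, 24.5 and 21.1 CPM. Its log2 fold change was 0.82 ± 0.15 (adjusted p = 0.155) with 6 libraries and 0.68 ± 0.13 (adjusted p = 0.0146) without scramble replicate 3, which was its lowest library. No gene in the data carried the symbol STING1, and a copy under an identifier without a symbol would be missed. AIM2 did not pass the filter on low counts. cGAS and MAVS, the adaptor of RNA sensing, had log2 fold changes near 0 that did not pass. DESeq2 called 6 sensors with 6 libraries.

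Among the 16 listed interferon signal transducers 14 were tested. No gene carried the symbol IRF9, and IRF7 did not pass the filter. With 6 libraries 2 transducers rose, and 5 rose and 2 fell without scramble replicate 3. USP18, which restrains the interferon receptor, was at 12.1, 11.7 and 13.1 CPM with scramble and 20.9, 21.9 and 19.0 CPM with SF3B2, with a log2 fold change of 0.74 ± 0.07 (adjusted p = 0.0207). Other genes hold 29.0% of its words, 14.7% in USP41. STAT2 was at 53.2, 46.6 and 49.4 against 73.0, 76.2 and 67.0 CPM, a log2 fold change of 0.53 ± 0.07 (adjusted p = 0.0463). The receptor chain IFNAR1 and the kinase JAK1 were the 2 that fell without scramble replicate 3.

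The genes of MHC class I antigen presentation moved less. Of 14 tested members of 17 listed, 1 rose with 6 libraries and 5 without scramble replicate 3, with a median log2 fold change of 0.19 in both. NLRC5, the transactivator of MHC class I genes, was the 1 called with 6 libraries, at 5.23, 5.03 and 4.72 CPM with scramble and 8.13, 7.84 and 7.33 CPM with SF3B2 (log2 fold change 0.64 ± 0.08, adjusted p = 0.043). TAP1, a subunit of the peptide transporter of the endoplasmic reticulum, was at 24.7, 24.0 and 28.4 against 36.1, 35.6 and 32.4 CPM. HLA-E was at 23.2, 25.3 and 27.6 CPM with scramble and 31.7, 31.5 and 31.1 CPM with SF3B2, and B2M, the shared light chain, at 168, 174 and 165 and 212, 203 and 189.9 CPM. All 3 were called only without scramble replicate 3, and none of their groups overlapped.

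The interferon beta and lambda genes were low in level, and IFNL2 lay at the detection floor in scramble replicate 1. Of 10 listed ligand genes 5 were tested, and IFNL4, IFNK, IFNG, IFNA1 and IFNA2 did not pass the filter. With 6 libraries edgeR called none of the 5, where all 5 had an unadjusted p under 0.05 and DESeq2 called 2 and edgeR's exact test 1. There were 4 called higher without scramble replicate 3, which fell to 0 without scramble replicate 1, to 1 without SF3B2 replicate 2 and to 2 without SF3B2 replicate 3. IFNL1, an interferon lambda, was at 0.0634, 0.0787 and 0.0997 CPM with scramble and 0.240, 0.270 and 0.198 CPM with SF3B2 (log2 fold change 1.71 ± 0.28 without scramble replicate 3, adjusted p = 0.01). IFNB1, interferon beta, was at 0.0407, 0.102 and 0.156 CPM with scramble and 0.202, 0.379 and 0.189 CPM with SF3B2. The SF3B2 libraries were above all scramble libraries for both, but scramble replicate 3 was the highest scramble library for each of the 4. IFNL2 was at 0.0136, 0.0747 and 0.156 against 0.230, 0.531 and 0.330 CPM and IFNL3 at 0.0272, 0.134 and 0.169 against 0.296, 0.544 and 0.429 CPM. These share 56.4% and 54.8% of their words with other genes, chiefly each other. IFNE, the other ligand tested, had a log2 fold change below 0 in both fits, which edgeR did not call, while DESeq2 called it lower without scramble replicate 3 and called 2 ligands higher.

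The starts of effector genes that rose are shown to set their shared motif beside the values above. The interferon-stimulated response element core was searched as GAAANNGAA on both strands of RefSeq windows (GRCh38.p14) from 250 bases before to 50 after a gene's start, of which 8.29% of 27305 hold it. Among the effectors 30 of 41 windows held it (73.2%), among MHC class I genes 9 of 14, among sensors 5 of 9, among ligands 4 of 9 and among signal transducers 1 of 10. The windows of IFIT1 (chr10:89392373-89392672, plus strand), IFI6 (chr1:27672143-27672442, minus strand), ISG15 (chr1:1013247-1013546, plus strand) and IFITM1 (chr11:313790-314089, plus strand) hold 2, 3, 3 and 2 matches, in capitals. The CMPK2 window held none, which says only that these letters are not in that window.
IFIT1: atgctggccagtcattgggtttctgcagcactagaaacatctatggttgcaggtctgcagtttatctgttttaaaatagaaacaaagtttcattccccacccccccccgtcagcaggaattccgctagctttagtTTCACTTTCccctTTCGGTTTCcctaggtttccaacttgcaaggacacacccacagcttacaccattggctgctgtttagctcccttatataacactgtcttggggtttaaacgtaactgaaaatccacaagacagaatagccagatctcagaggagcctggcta
IFI6: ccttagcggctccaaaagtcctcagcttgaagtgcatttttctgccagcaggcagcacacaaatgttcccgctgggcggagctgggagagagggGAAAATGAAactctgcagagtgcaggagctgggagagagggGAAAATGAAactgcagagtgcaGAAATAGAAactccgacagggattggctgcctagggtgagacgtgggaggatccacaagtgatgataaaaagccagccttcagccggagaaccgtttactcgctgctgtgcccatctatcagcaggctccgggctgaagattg
ISG15: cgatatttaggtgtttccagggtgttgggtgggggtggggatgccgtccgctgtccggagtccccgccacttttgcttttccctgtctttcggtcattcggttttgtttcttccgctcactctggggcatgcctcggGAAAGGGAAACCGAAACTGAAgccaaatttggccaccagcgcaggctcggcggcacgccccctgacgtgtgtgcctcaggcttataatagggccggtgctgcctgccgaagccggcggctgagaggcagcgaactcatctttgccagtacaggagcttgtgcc
IFITM1: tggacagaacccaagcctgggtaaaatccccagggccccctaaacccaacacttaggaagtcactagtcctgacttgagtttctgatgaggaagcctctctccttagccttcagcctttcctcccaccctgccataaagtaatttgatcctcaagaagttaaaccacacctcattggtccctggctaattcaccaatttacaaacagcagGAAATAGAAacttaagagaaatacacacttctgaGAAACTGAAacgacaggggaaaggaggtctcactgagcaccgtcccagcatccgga

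The effector levels with SF3B2 lay between those with scramble and those with eGFP, the other pcDNA3.1 plasmid. Summed over the 52 effectors, the level was 1287 to 1516 CPM with scramble, 1974 to 2265 CPM with SF3B2, 6027 to 7360 CPM with eGFP and 1417 to 2189 CPM with snaR-A. IFIT1 was at 930.0, 974 and 764 CPM in the eGFP libraries, above each of its SF3B2 libraries. snaR-A replicate 3, whose labels disagree on the cell line, gave the highest snaR-A value. These contrasts share the scramble libraries and no test was run between SF3B2 and eGFP.

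HSPA6, an inducible HSP70 chaperone that is silent in most unstressed cells, was the heat shock gene that changed most. It was at 0.615, 0.566 and 1.77 CPM with scramble and 7.38, 7.17 and 7.66 CPM with SF3B2, beside 1.94, 1.88 and 1.81 CPM with eGFP and 0.506 to 0.658 CPM with snaR-A. The SF3B2 libraries lay above all other A549 libraries. Its log2 fold change was 2.91 ± 0.43 (adjusted p = 0.0821) with 6 libraries and 3.63 ± 0.10 (adjusted p = 5.38e-05) without scramble replicate 3. The split as a term in the 6-library fit leaves scramble replicate 3 as the only control. The HSPA6 log2 fold change was then 2.07 and that of SF3B2 2.43. Scramble replicate 3 lay 17.3% of the way from the mean of scramble replicates 1 and 2 to the SF3B2 mean for HSPA6, beside 18.0% for SF3B2 itself, 15.3% for IFNA22P, 20.3% for BTK, 9.99% for CASS4, 3.16% for MRC1 and 29.6% for HSPA1A. For IFIT1 and MX1 it lay at -11.9% and -15.2%, outside that interval. Over the 52 effectors the median, on the log2 scale, was -19.1%. Effectors differed in this, since for OASL, IFITM1, ISG15, IFI27 and BST2 scramble replicate 3 was the highest scramble library and lay inside the interval. HSPA6 (chromosome 1, 161524540 to 161526894, plus strand) has 57.1% of its words in other genes, almost all in HSPA7, so its counts may be split.

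The HSPA6 window (chr1:161524290-161524589, plus strand) is shown because it holds 2 matches, in capitals, to GAANNTTC, an inverted pair of heat shock element units. The motif reads the same on both strands and stood in 6.87% of the 27305 windows and in 9 of 22 windows of heat shock genes (40.9%).
HSPA6: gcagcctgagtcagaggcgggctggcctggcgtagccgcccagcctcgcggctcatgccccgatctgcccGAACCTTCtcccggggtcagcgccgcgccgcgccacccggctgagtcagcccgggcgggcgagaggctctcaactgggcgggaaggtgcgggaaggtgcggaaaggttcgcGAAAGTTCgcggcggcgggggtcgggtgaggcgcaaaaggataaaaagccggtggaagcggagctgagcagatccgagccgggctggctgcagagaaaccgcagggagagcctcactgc

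**Figure D4:**
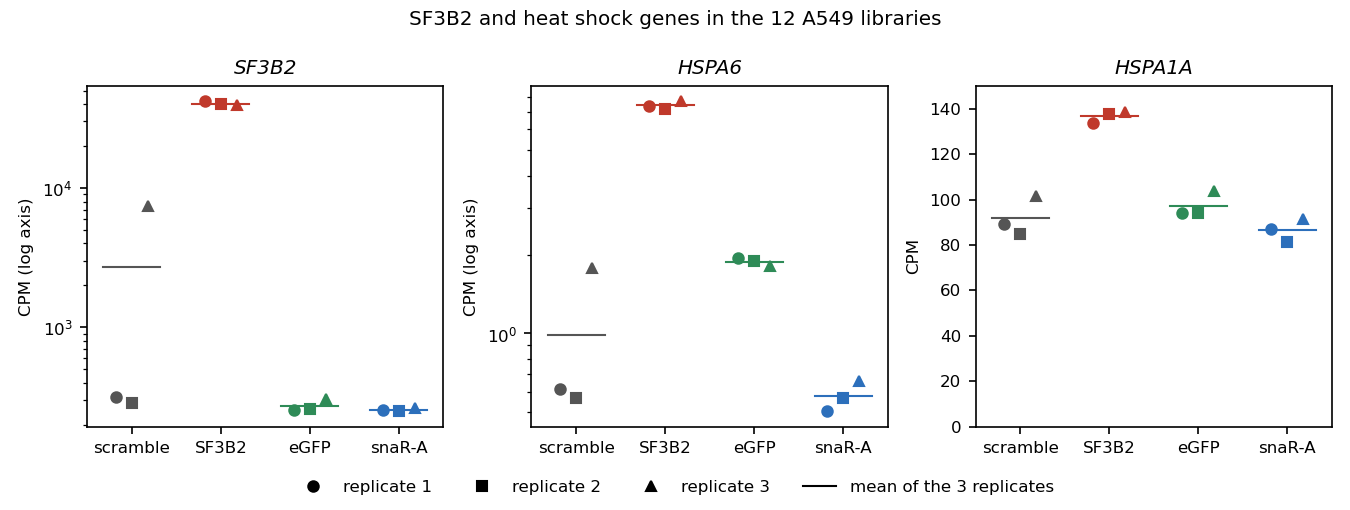
CPM of SF3B2 and HSPA6 (log axes) and HSPA1A (linear axis from 0) in the 12 A549 libraries by plasmid, with points for replicates and a line at the mean of 3. Scramble replicate 3 lies between the other scramble libraries and the SF3B2 libraries in all 3 panels.

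Of 21 heat shock genes tested, 1 rose with 6 libraries, and 5 rose and 3 fell without scramble replicate 3. The latter were 23.8% and 14.3%, against 10.9% and 11% of all genes tested. HSPA1A, the major inducible HSP70, was the 1 called with 6 libraries, at 89.3, 85.0 and 102 CPM with scramble and 134, 138 and 138 CPM with SF3B2 (log2 fold change 0.57 ± 0.07, adjusted p = 0.043). Its SF3B2 libraries were all higher than the eGFP libraries, at 94.0, 94.1 and 104 CPM, and HSPA1B shares 76.0% of its words. HSPB1, a small heat shock protein, was at 88.3, 82.2 and 103 CPM against 123, 129 and 111 CPM and did not overlap. It was called only without scramble replicate 3 (log2 fold change 0.49 ± 0.07, adjusted p = 0.00647), as DNAJB1 and BAG3 were. HSPD1, the mitochondrial chaperonin, fell there, at 2066, 1756 and 1353 CPM with scramble and 1388, 1399 and 1349.9 CPM with SF3B2. Scramble replicate 3 was within the range of the SF3B2 libraries for HSPD1. The cytosolic chaperones HSPA8, HSP90AA1 and HSP90AB1 were not called in either fit.

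Other genes past both limits with 6 libraries are named here after their values were seen. All of these but ENSG00000276561 were low in level. CASS4, a Cas-family scaffold, was at 0.240, 0.201 and 0.282 CPM with scramble and 0.809, 0.830 and 0.872 CPM with SF3B2, a log2 fold change of 1.80 ± 0.16 (adjusted p = 0.0195). MRC1, the macrophage mannose receptor, was at 0.186, 0.205 and 0.208 CPM against 0.630, 0.573 and 0.627 CPM. BTK, a tyrosine kinase of B-cell receptor signalling, was at 0.448, 0.574 and 0.702 CPM against 1.52, 1.39 and 1.45 CPM. In these 3 genes every eGFP library lay below every SF3B2 library, at 0.285, 0.335 and 0.411 CPM for CASS4, 0.185, 0.187 and 0.162 CPM for MRC1 and 0.437, 0.490 and 0.356 CPM for BTK. IFNA22P, an interferon alpha pseudogene, was at 0.0407, 0.0354 and 0.0911 CPM with scramble, 0.437, 0.379 and 0.335 CPM with SF3B2 and 0.0642, 0.0797 and 0.0509 CPM with eGFP. IDO1, a tryptophan-degrading enzyme induced by interferon gamma, followed the effectors, at 0.683, 0.724 and 0.642 CPM with scramble, 1.32, 1.82 and 1.45 CPM with SF3B2 and 5.02, 4.50 and 3.56 CPM with eGFP. ENSG00000276561, which has no symbol or position in the annotation used, was at 4.48, 4.71 and 5.23 CPM against 10.3, 10.3 and 9.44 CPM.

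The 2 genes past both limits in the lower direction had 0 counts in all SF3B2 libraries and were low in the controls. ENSG00000226898 was at 0.163, 0.130 and 0.134 CPM with scramble. ENSG00000272760 was at 0.430, 0.421 and 0.512 CPM with scramble, and all of its words occur in PAXIP1-AS2. Fitted fold changes of such genes depend on the prior count and are not given.

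Subunits of SF3A and SF3B, the partners of SF3B2, changed little. Of the 9 tested none was called with 6 libraries by edgeR's quasi-likelihood test, its exact test or DESeq2, and none had an unadjusted p under 0.05. Without scramble replicate 3 SF3B5 was higher and SF3A3 lower. SF3B5, the smallest subunit, was at 17, 19.1 and 24.0 CPM with scramble and 23.7, 22.7 and 23.4 CPM with SF3B2, and SF3A3 at 119.8, 112 and 83.7 against 93.5, 90.7 and 87.1 CPM. In both genes scramble replicate 3 lay apart from the other scramble libraries, beyond the SF3B2 libraries. SF3B1, the subunit that contacts the branch helix, was at 422, 461 and 502 CPM with scramble and 480.4, 491 and 480.1 CPM with SF3B2. It was not called in either fit (log2 fold change 0.07 ± 0.06 with 6 libraries). SF3A1 was at 164, 107 and 120.2 CPM against 111, 118 and 109.7 CPM, where scramble replicate 1 alone stood high.

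Splicing factors were called lower where scramble replicate 3 was left out and not with 6 libraries. With 6 libraries edgeR called none of 16 U2 proteins and partners, none of 23 SR proteins with their kinases and speckle scaffolds, and none of 26 hnRNP proteins, nor did DESeq2 or the exact test, and 5, 1 and 7 had an unadjusted p under 0.05. Leaving out scramble replicate 3 gave 8, 11 and 17 called lower and 1, 2 and 1 higher. Of all genes tested 11% were called lower and 10.9% higher there. The median log2 fold changes of the lists were -0.09, -0.14 and -0.18. HNRNPA2B1, which packages nascent RNA, was at 2382, 2062 and 1587 CPM with scramble and 1604, 1566 and 1564 CPM with SF3B2. SRSF4, an SR protein, was at 108, 85.3 and 64.6 against 66.4, 69.0 and 65.8 CPM, and U2AF1, which recognises the intron end, at 35.6, 30.3 and 26.6 against 23.8, 28.3 and 24.0 CPM. In all 3 genes scramble replicate 3 was within or next to the range of the SF3B2 libraries. It was nearer to the SF3B2 mean in 12 of 16, 19 of 23 and 23 of 26 members of the lists. With the split as a term in the 6-library fit the medians were 0.02, 0.01 and 0.01. That fit leaves scramble replicate 3 as the only control, so it restates the nearness of that library and is no separate check. A GC correction left 3, 6 and 10 called lower. The counts were lower with most of the 5 libraries left out in turn. Without scramble replicate 1 they were 4, 4 and 9, without SF3B2 replicate 1 they were 4, 7 and 10, without SF3B2 replicate 2 they were 5, 6 and 7, without SF3B2 replicate 3 they were 4, 7 and 10, and without scramble replicate 2 they were 8, 10 and 17.

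All 13 mitochondrially encoded mRNAs were called lower without scramble replicate 3, with a median log2 fold change of -0.89, and none with 6 libraries, where 11 had an unadjusted p under 0.05 and DESeq2 and the exact test called none. MT-ND1, a subunit of respiratory complex I, was at 9959, 7773 and 4674 CPM with scramble and 4512, 4116 and 4969.8 CPM with SF3B2. MT-CO1, the catalytic subunit of cytochrome oxidase, was at 28546, 25227 and 15912 against 15336, 14456 and 17438 CPM. Scramble replicate 3 lay within the range of the SF3B2 libraries for both. With eGFP, MT-ND1 was at 4829, 4166 and 6996 CPM, and eGFP replicate 3, the library of that group without PSMB3 counts, was the highest. With the split as a term in the 6-library fit, which leaves scramble replicate 3 as the only control, the median over the 13 was 0.03. Nuclear pseudogenes share words with most of these genes, MTCO1P12 with MT-CO1 among them.

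The inflammatory chemokines and cytokines were lower in part. Of 19 tested, edgeR called 11 lower and none higher without scramble replicate 3, and DESeq2 called 11 lower and 1 higher. The edgeR share was 57.9%, against 11% of all genes tested. In 12 of the 19 the SF3B2 libraries lay below all 3 scramble libraries, as in 8.87% of all genes. With the split as a term over all A549 libraries but scramble replicate 3 there were 4 called lower. With 6 libraries edgeR called none, where 12 had an unadjusted p under 0.05, DESeq2 called 4 lower and the exact test 2. IL6 was at 12.1, 11.7 and 6.83 CPM with scramble and 6.51, 5.90 and 5.89 CPM with SF3B2 (log2 fold change -0.74 ± 0.21, adjusted p = 0.366 with 6 libraries and -0.98 ± 0.07, adjusted p = 0.00221 without scramble replicate 3). CCL20, a chemoattractant for lymphocytes and dendritic cells, was at 2.46, 2.36 and 1.69 against 1.47, 1.32 and 1.58 CPM. For IL6 and CCL20 no SF3B2 library reached a scramble library, but scramble replicate 3 lay next to the SF3B2 range. CXCL1, a neutrophil chemoattractant, was at 19.6, 20.6 and 16.2 CPM against 15.2, 13.9 and 15.2 CPM, and LIF, an IL6-family cytokine, at 108, 94.3 and 75.7 against 71.3, 73.2 and 72.0 CPM. Scramble replicate 3 was nearer to the SF3B2 mean in 11 of 19.

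Targets of p53 were higher in part. Of 24 tested, 1 rose with 6 libraries (BTG2, an antiproliferative gene) and 13 without scramble replicate 3, and none fell. Without scramble replicate 3 this was 54.2%, against 10.9% of all genes tested. In 15 of 24 the SF3B2 libraries lay above all scramble libraries, as in 9.81% of all genes. Against scramble replicates 1 and 2 the list median was 0.20 to 0.22 in the SF3B2 libraries. It was 0.11 to 0.19 in the snaR-A libraries and -0.038 to 0.095 in the eGFP libraries. TIGAR, a regulator of sugar metabolism, was at 83.4, 86.1 and 102 CPM with scramble and 112, 124 and 119.6 CPM with SF3B2 (log2 fold change 0.39 ± 0.08, adjusted p = 0.214 with 6 libraries). BBC3, the proapoptotic PUMA gene, was at 7.52, 9.05 and 10.7 CPM against 13.4, 12.9 and 12.6 CPM, and FDXR, a mitochondrial reductase, at 23.1, 25.4 and 29.8 against 34.2, 35.4 and 33.3 CPM. The split as a term in the 6-library fit leaves scramble replicate 3 as the only control. There the median over the 24 was 0.14 and 22 were positive.

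The remaining lists had no member called with 6 libraries, where edgeR found 2 to 8 members of each with an unadjusted p under 0.05 except among the A549-typical genes (0). DESeq2 called 1 member of 4 of these lists there, and the exact test 1 member of 1 list. Calls ran both ways in most lists without scramble replicate 3, where 10.9% of all genes tested were called higher and 11% lower. Of 31 ATF4 and unfolded protein response genes 7 rose and 3 fell, of 32 proliferation genes 3 rose and 9 fell, of 19 replication-dependent histone genes 5 rose and 1 fell, and of 20 immediate early genes 3 rose and 4 fell. Of 25 hypoxia and glycolysis genes 6 rose and 4 fell, of 24 sterol genes 7 rose and 2 fell, and of 26 epithelial-mesenchymal transition genes 4 rose and 5 fell. Of 24 NRF2 targets 8 rose, of 11 A549-typical genes 6 rose and of 10 HEK293T-typical genes 2 fell by edgeR's quasi-likelihood test. DESeq2 and the exact test also called 4 NRF2 targets and 1 A549-typical gene lower, and DESeq2 called 5 HEK293T-typical genes lower and 1 higher. The 8 NRF2 targets were 5 without scramble replicate 1 and 5 without SF3B2 replicate 1. ALDH3A1, an aldehyde dehydrogenase, was at 388, 456 and 641 CPM with scramble and 642, 573 and 639 CPM with SF3B2, and AKR1C1, an aldo-keto reductase, at 443, 454 and 709 against 636, 589 and 649 CPM. Scramble replicate 3 was at or above most SF3B2 libraries in both. HYOU1, an endoplasmic reticulum chaperone, was at 20.2, 22.9 and 31.4 CPM against 32.6, 41.4 and 35.8 CPM, and SLC3A2, an amino acid transporter chain, at 418, 466 and 560.5 against 579, 603 and 583 CPM. For HYOU1 and SLC3A2 all SF3B2 libraries were above all scramble libraries.

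**Figure D5:**
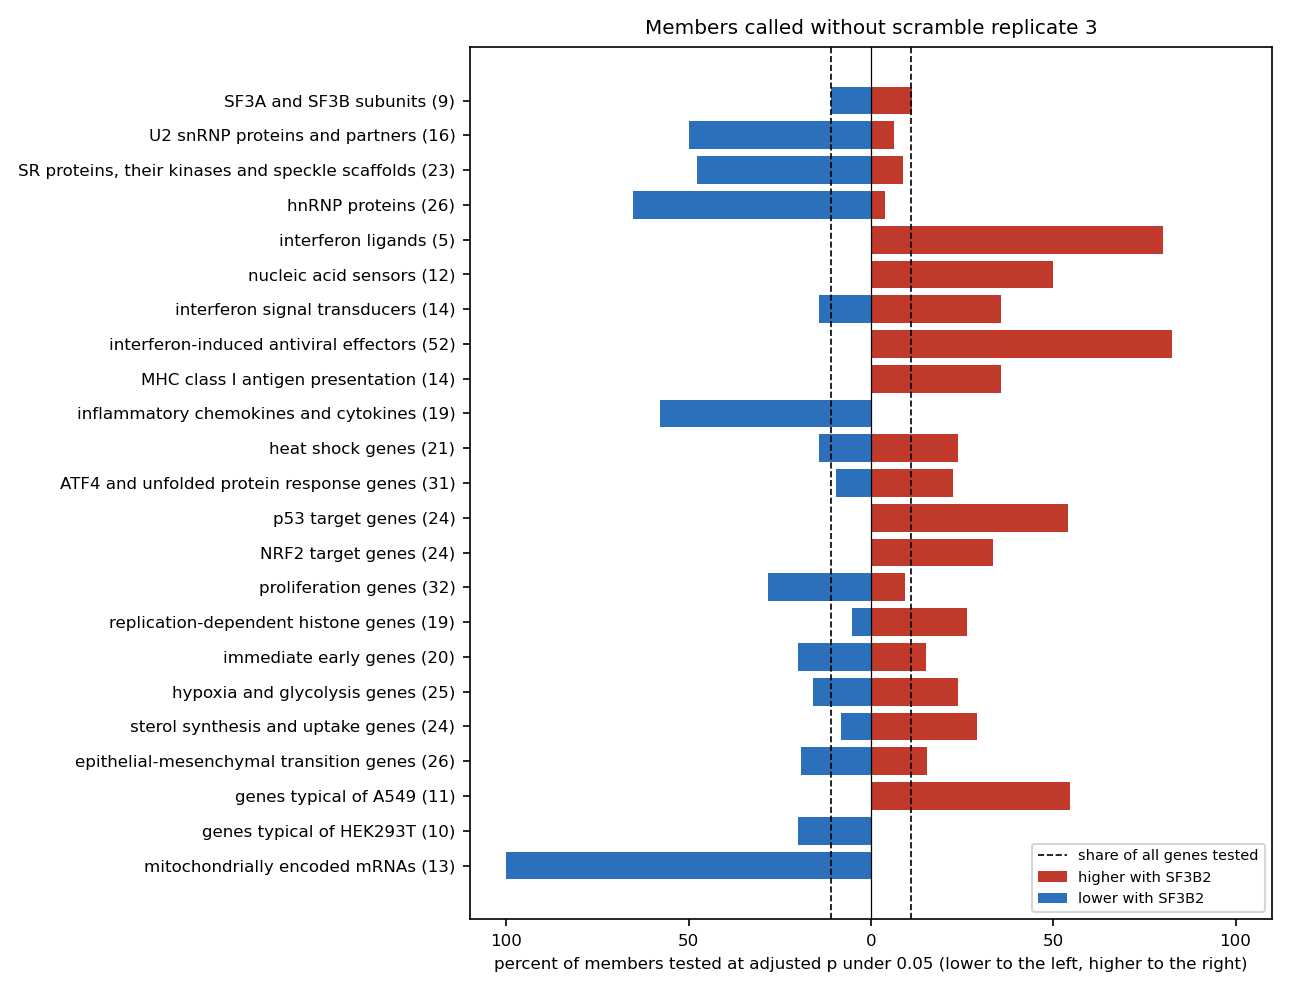
Percent of the members tested in each list (number in brackets) called higher or lower with SF3B2 at an adjusted p under 0.05 without scramble replicate 3, with dashed lines at the share of all genes tested, 10.9% higher and 11% lower. The antiviral effectors and interferon ligands reach furthest to the right and the mitochondrial mRNAs and hnRNP proteins furthest to the left.

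NME1, a nucleoside diphosphate kinase, was at 171, 181 and 206 CPM with scramble and 206, 205 and 193 CPM with SF3B2. Scramble replicate 3 lay within or at the edge of the SF3B2 range. Its log2 fold change was 0.11 ± 0.07 (adjusted p = 0.461) with 6 libraries and 0.17 ± 0.04 (adjusted p = 0.0353) without scramble replicate 3. It was -0.03 with the split as a term in the 6-library fit, where scramble replicate 3 is the only control left. Without scramble replicate 3 it was 0.075 to 0.30 under the other settings, with adjusted p values of 0.00221 to 0.566.

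Among the 315 genes past both limits without scramble replicate 3, that library was nearer to the SF3B2 mean in 206 (65.4%), against 69.6% of all genes tested. PSMB3, used above to describe the split, was at 0, 0 and 48.1 CPM with scramble and 37.5, 32.4 and 45.9 CPM with SF3B2. RN7SK, whose words all occur in other copies of the 7SK small nuclear RNA, was at 0, 0 and 3.72 CPM against 5.43, 4.53 and 8.32 CPM. KRT10-AS1, an antisense RNA gene, was at 0.0769, 0.0865 and 3.93 against 4.15, 4.50 and 3.05 CPM, with a log2 fold change of 5.55 ± 0.25 (adjusted p = 4.69e-04) without scramble replicate 3 and 1.52 ± 1.28 (adjusted p = 0.569) with 6 libraries. ENSG00000196656, with 73.7% of its words in RPS26, was at 0, 0 and 4.18 against 3.26, 5.28 and 1.85 CPM. In PSMB3, KRT10-AS1 and ENSG00000196656 scramble replicate 3 lay within or above the range of the SF3B2 libraries, and in RN7SK below it. ITGB1P1 was at 45.0, 25.6 and 4.42 against 0, 0 and 0.146 CPM, and all of its words occur in ITGB1, its parent gene. GCSHP5 shares 93.7% of its words with GCSH, ASDURF 90.3% with ASNSD1 and BZW1P2 99.6% with BZW1, so that these counts may move between copies. TRIM27, a ubiquitin ligase, was at 0.471, 0 and 0 CPM with scramble and 13.2, 6.78 and 5.12 CPM with SF3B2, with scramble replicate 3 at 0. It was called only without scramble replicate 3 (adjusted p = 0.263 with 6 libraries). There its log2 fold change ran from 4.13 to 13.9 with 1 more library left out. Under the other settings its adjusted p values were 7.53e-04 to 0.294. What the 0 counts of TRIM27 stem from was not tested. Of the 315 genes past both limits 37 had a group at 0 in every library, 38 were pseudogenes and 249 had a mean under 1 log2 CPM, and without scramble replicate 1 the count was 189.

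The SF3B2 effect was set beside that in HEK293T cells by a test of the difference over 12 libraries. Of 24589 genes 6017 (24.5%) differed between the lines at an adjusted p under 0.05, and 25 of the 52 antiviral effectors did, 22 of them with the larger log2 fold change in A549. In HEK293T the libraries without PSMB3 counts were SF3B2 replicates 1 and 2, so that the split ran there in the opposite sense to the plasmid. With the split as a term 1679 genes and 18 of the 52 effectors differed, and without scramble replicate 3 of A549 24 of the 52 did. For IFIT1 the log2 fold changes were 1.17 in A549 and -0.04 in HEK293T, a difference of 1.21. BTK went the other way, with 1.34 in A549 and 4.18 in HEK293T.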

How the data were processed

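RNA was sequenced from rRNA-depleted, poly(A)-selected stranded libraries of A549 and HEK293T cells 48 h after transfection. Per the submitters' processing notes the authors trimmed reads with Trim Galore and quantified them with Salmon on hg38, and deposited 1 table of estimated counts per Ensembl gene with 60236 genes and 24 libraries. The transcriptome release and the step from transcripts to genes are not given in the sources used here. Of the values 51.0% were not whole, so counts were rounded before testing. Symbols and positions came from GENCODE 44 for 54903 genes, and the 5333 others held 2.53% of the counts and kept their identifiers. All columns matched a labelled sample.

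Genes kept by filterByExpr were tested with edgeR 4.0.16 (R 4.3.3) by the quasi-likelihood test after TMM scaling, with Benjamini-Hochberg adjustment over all genes tested, with a limit of 0.05 for the adjusted p and of 1 for the absolute log2 fold change. Groups came from cell line and plasmid in the labels. SF3B2 was compared with scramble in A549 over 6 libraries and over 5, and the cell lines by the interaction term over 12. Interferon and other gene lists were counted with no set test. DESeq2 1.42.0, edgeR's exact test, RLE and library-size scaling, other filters, all A549 libraries in 1 fit, a replicate block and leaving out each library were the alternatives, and a lowess GC correction and a fit with the library split (PSMB3 at 0 counts) as a term were added after seeing the data. The tests were tried on simulated counts with 200 changed genes, all of which were recovered. There were 8 false calls with 6 libraries and 6 without scramble replicate 3. With a GC-linked shift added there were 75 and 4301 false calls in turn. That shift was given the directions seen here, with scramble replicate 3 moved as the SF3B2 libraries were. Its size was a fixed setting and not fitted to these libraries. These false calls therefore do not estimate how many of the called genes are false. Totals of 214482353 to 260878268 per library put 3 counts at 0.0115 to 0.0140 CPM. Log2 levels in the plots of gene lists use CPM + 0.1. Words of 31 bases shared between transcripts were counted in the reference transcripts. Promoter windows came from RefSeq on GRCh38.p14. Python 3.11.15, pandas 2.3.3, numpy 2.4.6, scipy 1.17.1 and matplotlib 3.10.9 were used.

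Named genes were SF3B2, NME1 and SF3A and SF3B subunits, up to 10 genes per direction with the largest change past both limits, above 1 log2 CPM and without overlap in each fit, and up to 4 members of each list by absolute log2 fold change. The values of 2 genes that this rule picked are not reported here. The members of the comparison and the lists were chosen with earlier results of these data known. Deviations of SF3B2 and scramble libraries with the same replicate number correlated at 0.05, -0.05 and -0.03. Scramble replicate 3 stood far from the other scramble libraries and weighed on these deviations. The correlations can therefore not decide whether the replicate numbers paired the libraries. No 2 replicates of the same group differed by less than the sampling noise. Over the 6 pairs within groups squared differences were 18.9 to 411 times the Poisson variance. Pairs of an SF3B2 and a scramble library were not checked in this way.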

Additional observations from a re-analysis of the deposited data

Results flagged for a closer look

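The effect of SF3B2 against scramble differed between A549 and HEK293T in 10 of the 18 genes past both limits with 6 A549 libraries, by edgeR's test of the interaction. In 7 of these the log2 fold change was larger in A549. For CMPK2 the difference, A549 minus HEK293T, was 1.43 on the log2 scale, with -0.01 in HEK293T. It was 1.94 for OASL, 1.96 for BATF2, 1.78 for IFI6, 1.21 for IFIT1 and 2.76 for IFITM1, whose log2 fold changes in HEK293T were -0.70, -0.76, -0.58, -0.04 and -0.96. It was 0.75 for IDO1, with 0.41 in HEK293T.

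In the other 3 genes the log2 fold change was larger in HEK293T. The difference was -2.85 for BTK, -1.10 for CASS4 and -1.75 for MRC1, with 4.18, 2.89 and 3.36 in HEK293T.

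The libraries without PSMB3 counts were scramble libraries in A549 and SF3B2 libraries in HEK293T, and their part in these differences was tested only by adding the split to the fit. The difference then kept an adjusted p under 0.05 for BATF2 (0.009), IFI6 (0.012), IFIT1 (0.023), IFITM1 (0.004), BTK (0.005) and MRC1 (0.028). It did not for CMPK2 (0.066), OASL (0.429), CASS4 (0.080) and IDO1 (0.144). Without A549 scramble replicate 3 the adjusted p of IDO1 was 0.072 and the other 9 stayed under 0.05.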

How the results depend on the processing

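With 6 libraries, the 18 genes past both limits were 81 by edgeR's exact test, 69 by DESeq2 and 30 with no low-count filter. They were 8 with all A549 libraries in one fit and 5 with the library split as a term there. The 50 genes at an adjusted p under 0.05 were 214, 381, 80, 20 and 7 in the same order. They were 27 with RLE scaling and 30 with library size alone. The 19 antiviral effectors were 43, 46, 29, 0 and 0, and 10 with RLE scaling. The fits over all A549 libraries held snaR-A replicate 3, whose labels disagree on the cell line, and were not run without it. Leaving out 1 library gave 0 to 315 genes past both limits, 0 to 4825 by adjusted p and 0 to 43 effectors. Deviations of libraries with the same replicate number hardly correlated, which cannot decide whether they were paired. The replicate block, alone or with the GC correction, gave 0 genes past both limits, 0 by adjusted p and 0 effectors by edgeR, with 2446 genes at an unadjusted p under 0.05 for the block alone. With 3 against 3 libraries the block uses up residual degrees of freedom. Why the calls were lost under it was not tested.

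Without scramble replicate 3, the 315 genes past both limits were 197 by DESeq2 and 84 with the split as a term over all A549 libraries, and 189 to 409 with 1 more library left out. The 4825 called genes were 3053 after GC correction, 1673 with the replicate block and GC correction, 500 with the split and 2028 to 4401 with 1 library left out, and 3393 with the replicate block. With the split, calls went from 43 effectors to 0 (34 to 45 with 1 library left out), from 4 ligands to 1 (0 to 4), from 11 chemokines to 4 (8 to 9), from 13 p53 targets to 2 (11 to 13), from 8 NRF2 targets to 0 (5 to 11), from 17 hnRNP proteins to 2 (7 to 17), from 11 SR proteins to 0 (4 to 10), from 8 U2 proteins to 0 (4 to 8) and from 13 mitochondrial mRNAs to 0 (12 to 13). Where edgeR called 0 in that direction with the split, 10 effectors, 8 NRF2 targets, 9 SR proteins, 6 U2 proteins and 5 mitochondrial mRNAs had an unadjusted p under 0.05, and 2 U2 proteins were called higher. In these fits with the split, eGFP replicate 3 against the other eGFP libraries alone sets the split. Ligands were 2 by DESeq2, 1 with at least 10 counts in every library and 2 after GC correction. Chemokines were 7 with library size alone and 6 with SF3B2 left out of the totals, and hnRNP proteins 9 and 7, U2 proteins 5 and 3, SR proteins 4 in the latter and NRF2 targets 15 in the latter. GC correction gave 10 hnRNP proteins, 6 SR proteins and 3 U2 proteins. The replicate block gave 9 hnRNP proteins, 5 U2 proteins and 5 NRF2 targets, and with GC correction 7, 1 and 2, with 2 SR proteins. Of the 137 named genes 65 differed between the lines, 86 without scramble replicate 3 and 18 with the split.

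Some single genes changed direction. NME1 went to -0.031 with the split in the 6-library fit, where scramble replicate 3 is the only control left. The fit named next rests on eGFP replicate 3 against the other eGFP libraries for its split. Over all A549 libraries but scramble replicate 3 with the split, log2 fold changes became 0.32 for SF3A1, 0.17 for SF3A2, -0.12 for SF3B1, 0.16 for SF3B4, -0.24 for PHF5A, -0.44 for PSMB3, 0.79 for ITGB1P1, 11.59 for ENSG00000261061, 0.13 for BZW1P2, 0.19 for FAM3C2P and 0.062 for SRSF4. They became -0.0072 for TYK2, -0.0042 for DDIT3, -0.025 for BBC3, 0.36 for MCM4, -0.44 for H4C14, -0.027 for IER2, 0.040 for FOSL1, 0.0088 for DUSP6, 0.20 for PKM and -0.073 for PMVK. SF3A2, at -0.0060, was 0.00046 by DESeq2, 0.00051 with RLE scaling, 0.061 with library size alone, 0.12 with SF3B2 left out of the totals, 0.0071 with at least 10 counts, 0.013 with the replicate block and 0.0072 over all A549 libraries. SF3B6, at -0.0088, was 0.059, 0.12, 0.0043, 0.016 and 0.0044 under the last 5 in order, 0.089 after GC correction and 0.11 with the block as well. SF3B4 was 0.031 with SF3B2 left out of the totals. Leaving out 1 library took SF3A1 from -0.56 to 0.074, SF3A2 from -0.037 to 0.038 and SF3B6 from -0.036 to 0.034. The cause of these changes was not tested. At the depth of these libraries a level under 0.0140 CPM could not be told from 0, which bears on the interferon lambda genes.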
